A study of Mus musculus with 15 samples.

Results

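De novo lipogenesis is the making of fatty acids from acetyl units, and 10 mouse genes that carry or control it in the cytosol are described here across 5 groups of 3T3-L1 cells. The set holds the mitochondrial citrate carrier Slc25a1, ATP citrate lyase (Acly), the acetyl-CoA synthetase Acss2, the acetyl-CoA carboxylases Acaca and Acacb, fatty acid synthase (Fasn), the cytosolic malic enzyme Me1, the lipogenic protein Thrsp, and the transcription factor genes Srebf1 and Mlxipl. The genes were chosen by name and found by matching Ensembl identifiers to mouse symbols, and all 10 were among the 25700 identifiers counted. All 10 also passed the filter on low counts that left 12279 genes for testing. Thrsp reached 10 counts in every library of 3 groups only, the day 6 groups, and Mlxipl in every library of 1 group only, MIGA2-GFP at day 6, so these 2 genes entered the tests through groups in which they were high.

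The series measured RNA in 15 libraries from 3T3-L1, a mouse preadipocyte line that forms fat-storing cells after a hormone cocktail is given to confluent cultures. MIGA2 (mitoguardin 2) is a protein of the mitochondrial outer membrane. The groups of 3 libraries were cells labelled as overexpressing a MIGA2-GFP fusion at day 6 (MIGA2-GFP), cells labelled as depleted of MIGA2 at day 6 and at day 0 (MIGA2-KO), and wild-type cells at day 6 and at day 0 (WT). Day 0 is the moment at which dexamethasone, IBMX and insulin were added, and all day 6 groups had gone through the same change of media. The labels leave out how MIGA2 was removed or which part of the gene was changed, whether either altered line is 1 clone, what drives the fusion, or whether replicates are separate cultures. No change over time is given for the MIGA2-GFP line, of which only day 6 was analysed.

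In this pathway citrate leaves the mitochondria through Slc25a1 and is split by Acly into cytosolic acetyl-CoA, while Acss2 makes acetyl-CoA from acetate. The carboxylases turn acetyl-CoA into malonyl-CoA, and Fasn builds palmitate from malonyl-CoA with NADPH that Me1 and the pentose phosphate pathway supply. In fat cells and liver the genes of the pathway are switched on by insulin through SREBP-1, the product of Srebf1, and by glucose through ChREBP, the product of Mlxipl, and adipocyte differentiation of 3T3-L1 is a classic setting in which they rise.

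The stretch before an annotated transcription start is printed here for 4 of the genes. They were taken because they mark the ends of the range of values below. Thrsp and Fasn lay furthest below WT in both altered lines at day 6. Acacb was the one gene that MIGA2-GFP cells had called above WT, and Mlxipl was the least expressed. The sequences are the 250 bases before that start, 5′ to 3′ on the gene's strand, from RefSeq on GRCm38.p6. The Acacb stretch lies inside the gene span given below and not before its outer end. Capitals mark a CCAAT box (CCAAT, or ATTGG for the other strand) or, in Mlxipl, a match to the sterol regulatory element searched for.
Fasn, chr11:120824548-120824797, minus strand: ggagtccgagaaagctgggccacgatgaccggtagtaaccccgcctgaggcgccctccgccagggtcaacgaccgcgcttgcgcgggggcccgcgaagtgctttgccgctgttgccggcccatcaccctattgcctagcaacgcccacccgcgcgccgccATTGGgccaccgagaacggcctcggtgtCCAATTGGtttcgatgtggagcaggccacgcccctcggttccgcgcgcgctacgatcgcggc
Thrsp, chr7:97417551-97417800, minus strand: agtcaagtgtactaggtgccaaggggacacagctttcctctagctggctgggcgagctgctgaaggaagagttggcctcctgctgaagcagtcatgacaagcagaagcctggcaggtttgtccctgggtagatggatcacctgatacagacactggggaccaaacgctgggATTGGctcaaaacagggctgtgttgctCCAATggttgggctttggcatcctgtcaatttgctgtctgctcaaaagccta
Acacb, chr5:114165268-114165517, plus strand: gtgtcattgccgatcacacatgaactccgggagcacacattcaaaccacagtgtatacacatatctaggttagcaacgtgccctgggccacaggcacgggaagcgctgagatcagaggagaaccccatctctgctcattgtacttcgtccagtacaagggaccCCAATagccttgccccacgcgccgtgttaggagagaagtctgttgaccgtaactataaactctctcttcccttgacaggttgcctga
Mlxipl second start, chr5:135106641-135106890, plus strand: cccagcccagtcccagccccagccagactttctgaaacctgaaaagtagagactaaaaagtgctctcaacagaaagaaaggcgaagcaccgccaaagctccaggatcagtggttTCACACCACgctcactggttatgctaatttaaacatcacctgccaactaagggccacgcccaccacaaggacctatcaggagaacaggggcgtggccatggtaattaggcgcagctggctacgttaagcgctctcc

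All 10 genes matched the RefSeq table, with 14 windows of 300 bases (250 before and 50 after the start). A CCAAT box, CCAAT on either strand, the site to which NF-Y binds, lay in 10 of the 14 windows and in 9 of the 10 genes, while 37.4% of 32851 such windows held one. Fasn had 3 matches, which begin 90, 62 and 59 bases before the start, and the last 2 overlap on opposite strands. Thrsp had 2, at 79 and 52 bases before the start. The window of Acaca held no CCAAT. That window (84195188 to 84195487) and the Acacb window (114165268 to 114165567) lie inside the gene spans given below. For these genes the sequence before the outer end of the span was not searched. The sterol regulatory element of SREBP, searched as TCACNCCAC, matched only the second start of Mlxipl, 136 bases before it, against 1.24% of all windows. A GC box (GGGCGG) lay in 7 windows of 6 genes against 35.7% of all, and the E-box CACGTG in 2, Slc25a1 and the first start of Mlxipl, against 7.15%. The carbohydrate response element of ChREBP, searched as CACGNG followed at a fixed spacing by CNCGNG, was in none of the 14 windows and in 0.365% of all windows. These are matches of letters on both strands and not mapped binding sites.

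The libraries held 10748668 to 26003871 counts, WT at day 0 being the deepest group. In MIGA2-KO cells at day 6 Miga2 itself had 925.7, 74.5 and 70.0 CPM (counts scaled to library size by TMM factors). Replicate 1 of that group therefore goes against its label. MIGA2-GFP cells at day 6 had 155 to 166 CPM of Miga2 and WT cells at day 6 had 145 to 182 CPM, while at day 0 MIGA2-KO cells had 17.2 to 22.5 CPM and WT cells 13.6 to 17.8 CPM. Miga2 counts were thus not above WT in MIGA2-GFP, and not below WT in MIGA2-KO at day 0. Gene-level counts cannot show which part of the gene was changed, so only as labels are the line names used here. Replicates of MIGA2-GFP at day 6 and MIGA2-KO at day 0 agreed most closely (correlation of log2 CPM across genes 0.9931 to 0.995), and replicate 1 stood apart in MIGA2-KO at day 6, WT at day 6 and WT at day 0 (0.9657 to 0.9756 with the other replicates of its group). Results that rest on these 3 libraries are given with and without them where a call changes or a value moves by over 1.5 times.

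Adipocyte markers were present at day 6 in all 3 lines, at unequal levels. The 8 adipocyte markers (Adipoq, Plin1, Cidec, Lipe, Fabp4, Cfd, Retn and Slc2a4) were all counted in each day 6 library. Together they had 20116 to 21824 CPM in MIGA2-GFP, 5860 to 9425 CPM in MIGA2-KO and 30655 to 44742 CPM in WT, against 26.1 to 27.6 CPM in MIGA2-KO at day 0 and 32.2 to 49.8 CPM in WT at day 0. At day 6 the 6 preadipocyte and fibroblast markers summed to 2855 to 3061 CPM in MIGA2-GFP and 4448 to 8756 CPM in MIGA2-KO. The sum was 2175 to 2492 CPM in WT at day 6, and 9064 to 13013 CPM at day 0. Col1a1 made up most of this sum in every library, with 7690 of the 8756 CPM in MIGA2-KO day 6 replicate 2. Against WT at day 6, MIGA2-KO had 3 of the 6 called higher, Dlk1 lower (log2 fold change -0.87) and 2 not called. MIGA2-GFP had 2 higher than WT at day 6, 1 not called and 3 lower, Thy1 (-1.54), Ly6a (-1.10) and Dlk1 (-1.01). The sums thus do not stand for a common course of the 6 genes. Summed markers of brown adipocytes were at 73.4 to 76.9 CPM in MIGA2-GFP, 0 to 13.3 CPM in MIGA2-KO and 41.7 to 58.5 CPM in WT at day 6, all from 1 of the 2 genes listed. Summed markers of skeletal muscle reached 38.8 CPM in a single MIGA2-KO library of day 6 and 1.36 CPM at most in the other groups. Summed markers of endothelium stayed at or below 1.22 CPM, of hepatocytes at or below 4.68 CPM and of macrophages between 9.71 and 102 CPM in all libraries. Lyz2 made up most of the macrophage sum in every library, and Ptprc had no count in any. In bulk RNA, fewer cells of a type and less RNA per cell cannot be told apart, and this holds for every difference given below.

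Slc25a1 (ENSMUSG00000003528, chromosome 16, 17925223 to 17928219, GRCm38), the exporter of citrate, was at 652, 636 and 624 CPM in MIGA2-GFP, 270.04, 231 and 213 CPM in MIGA2-KO and 619, 816 and 889 CPM in WT at day 6. At day 0 it had 169, 159 and 157 CPM in MIGA2-KO and 233, 171 and 156 CPM in WT. The MIGA2-GFP and WT libraries at day 6 overlapped and lay above all others, and MIGA2-KO at day 6 overlapped WT at day 0.

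Acly (ENSMUSG00000020917, chromosome 11, 100476353 to 100528000), which splits citrate, had 153, 157 and 156 CPM in MIGA2-GFP, 130.2, 115 and 122 CPM in MIGA2-KO and 319.8, 270.5 and 278 CPM in WT at day 6. At day 0 it stood at 287, 292 and 293 CPM in MIGA2-KO and at 203, 290.3 and 287 CPM in WT. Its level in WT was therefore similar at both times, and the lowest libraries of the series were those of MIGA2-KO at day 6, with MIGA2-GFP next and no overlap between them.

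Acss2 (ENSMUSG00000027605, chromosome 2, 155517948 to 155585724) had 60.8, 54.3 and 54.9 CPM in MIGA2-GFP, 26.8, 21.1 and 16.6 CPM in MIGA2-KO and 49.7, 42.6 and 45.5 CPM in WT at day 6. Day 0 values were 28.1, 30.9 and 28.6 CPM in MIGA2-KO and 26.4, 32.4 and 33.6 CPM in WT. MIGA2-GFP was thus the highest group, without overlap, and MIGA2-KO at day 6 had the lowest mean, while its highest library overlapped the lowest of WT at day 0. Some exon bases of Acss2 are shared with Ggt7 and Gss on the opposite strand, and whether the counting used strand is not stated in the sources at hand.

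The 2 carboxylases did not follow one order. Acaca (ENSMUSG00000020532, chromosome 11, 84129672 to 84401651), whose product ACC1 makes the cytosolic malonyl-CoA used by Fasn, had 74.5, 76.6 and 71.3 CPM in MIGA2-GFP, 58.4, 30.7 and 36.8 CPM in MIGA2-KO and 119, 133 and 126 CPM in WT at day 6. It had 44.5, 48.8 and 53.2 CPM in MIGA2-KO and 40.4, 37.9 and 38.5 CPM in WT at day 0. Acaca was highest in WT at day 6. Among the lower 3 groups, the range of MIGA2-KO at day 6 spanned both day 0 groups, which did not overlap each other. That span rested on replicate 1, with 58.4 CPM. The other MIGA2-KO values of day 6, 30.7 and 36.8 CPM, lay below every day 0 library.

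Acacb (ENSMUSG00000042010, chromosome 5, 114146535 to 114250761), whose product ACC2 sits at the mitochondrial outer membrane and whose malonyl-CoA restrains fatty acid entry into mitochondria, had 75.6, 74.3 and 78.6 CPM in MIGA2-GFP, 31.0, 16.1 and 14.5 CPM in MIGA2-KO and 30.9, 37.5 and 39.99 CPM in WT at day 6. At day 0 it was at 11.1, 10.5 and 9.98 CPM in MIGA2-KO and 8.72, 8.20 and 7.62 CPM in WT. MIGA2-GFP stood well above every other library, and the library labelled MIGA2-KO day 6 replicate 1, with 31.0 CPM, was the one that reached into the range of WT at day 6.

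Fasn (ENSMUSG00000025153, chromosome 11, 120805846 to 120824547) had 765, 717 and 752 CPM in MIGA2-GFP, 385, 427 and 393 CPM in MIGA2-KO and 1421, 1686 and 1973 CPM in WT at day 6. It had 329.99, 329 and 308 CPM in MIGA2-KO and 191, 226 and 174 CPM in WT at day 0. The 5 groups did not overlap at any step, in the order WT at day 6, MIGA2-GFP, MIGA2-KO at day 6, MIGA2-KO at day 0 and WT at day 0.

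Me1 (ENSMUSG00000032418, chromosome 9, 86581371 to 86695953), a source of NADPH, had the narrowest range of the 10 genes. It had 101, 106 and 97.8 CPM in MIGA2-GFP, 79.6, 70.5 and 77.5 CPM in MIGA2-KO and 109, 121 and 109 CPM in WT at day 6, and 72.9, 68.6 and 67.1 CPM in MIGA2-KO and 49.2, 46.0 and 53.5 CPM in WT at day 0. The MIGA2-KO libraries of the 2 times overlapped, and all other neighbouring groups were separate.

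Thrsp (ENSMUSG00000035686, chromosome 7, 97412938 to 97417730), the thyroid hormone responsive Spot 14 protein of lipogenic tissues, had the widest range. It was at 434, 435 and 426 CPM in MIGA2-GFP, 73.7, 22.0 and 18.1 CPM in MIGA2-KO and 752, 1134 and 1231 CPM in WT at day 6. At day 0 it had 1 count over the 3 MIGA2-KO libraries and 1 count over the 3 WT libraries. The 3 day 6 groups were separate, and within MIGA2-KO the library labelled replicate 1 held over 3 times the level of the other pair.

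Srebf1 (ENSMUSG00000020538, chromosome 11, 60199089 to 60222581), which encodes SREBP-1, had 258, 231 and 250.3 CPM in MIGA2-GFP, 127, 146 and 134 CPM in MIGA2-KO and 160.4, 191 and 291 CPM in WT at day 6. It was at 45.3, 41.6 and 40.1 CPM in MIGA2-KO and 31.3, 35.4 and 24.8 CPM in WT at day 0. MIGA2-GFP and WT at day 6 overlapped, WT having the widest spread of the well counted genes in that group, with a highest library 1.81 times the lowest. Srebf1 shares exon bases with Rai1 on the opposite strand.

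Mlxipl (ENSMUSG00000005373, chromosome 5, 135089890 to 135138382), which encodes ChREBP, was barely counted. It had 2.05, 1.83 and 2.57 CPM in MIGA2-GFP, 0.609, 0 and 0 CPM in MIGA2-KO and 0.633, 0.195 and 1.26 CPM in WT at day 6, which are 75, 7 and 22 counts over the groups, and no count in the 6 libraries of day 0. All 7 counts of MIGA2-KO at day 6 came from the library labelled replicate 1.

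**Figure D1:**
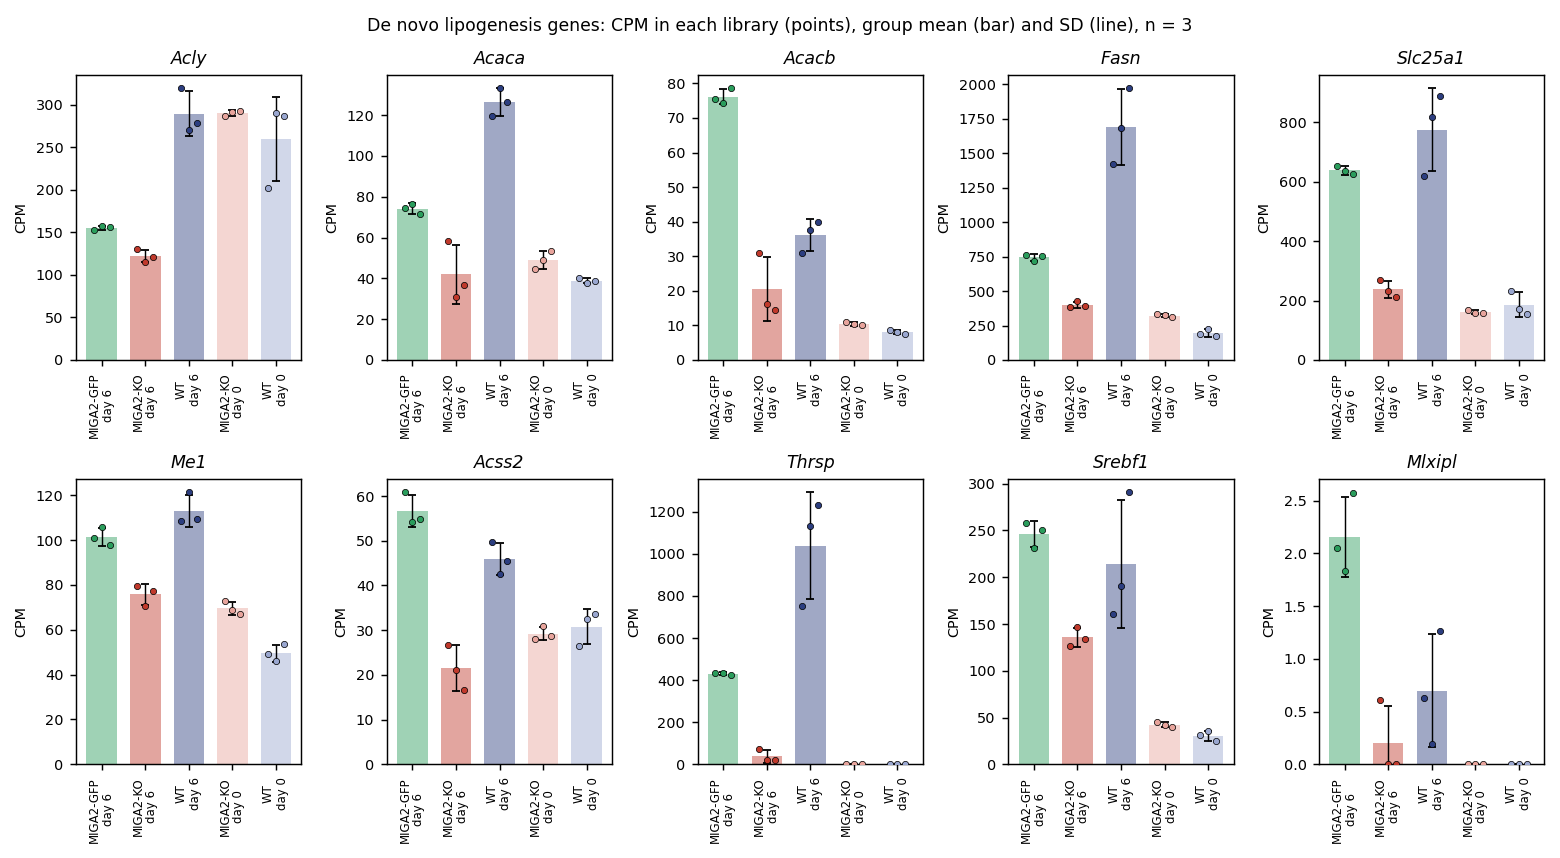
CPM of each of the 10 genes (vertical axes, 1 panel per gene, each with its own scale from 0) in MIGA2-GFP day 6, MIGA2-KO day 6, WT day 6, MIGA2-KO day 0 and WT day 0; points are libraries, bars means and lines SD (n = 3 each). Fasn and Thrsp were highest in WT at day 6, Acacb and Mlxipl in MIGA2-GFP, and Acly was lowest in MIGA2-KO at day 6.

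On a scale per kilobase of exon, the order of the genes differed among groups. The length used merges all annotated exons of a gene and is not that of a single transcript, so the order between genes depends on it. In MIGA2-GFP the first places were held by Slc25a1 at 294.6 ± 6.53, Thrsp at 197 ± 2.21 and Fasn at 68.0 ± 2.28 CPM per kb. In MIGA2-KO at day 6 they were Slc25a1 at 110 ± 13.5, Fasn at 36.7 ± 2.04 and Srebf1 at 24.1 ± 1.76 CPM per kb, with Thrsp sixth at 17.3 ± 14.2. In WT at day 6 they were Thrsp at 474.7 ± 116, Slc25a1 at 358 ± 64.5 and Fasn at 155 ± 25.2 CPM per kb (SD, n = 3 in each group). At day 0 Slc25a1, Acly and Fasn held the first 3 places in both lines.

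In WT cells 9 of the 10 genes were higher at day 6 than at day 0 and none was lower, in edgeR's quasi-likelihood test with Benjamini-Hochberg adjustment over all genes at a threshold of 0.05. Of all genes tested, 31.7% were called higher and 33.1% lower, 64.8% in all. Thrsp and Mlxipl had 1 count and 0 counts in WT at day 0 and could only be called higher, so the count to set against that share is 7 of the 8 other genes. Among the enzymes Fasn rose most, to 1693 ± 276 CPM at day 6 against 197 ± 26.6 CPM at day 0 (SD, n = 3), a log2 fold change of 3.10 ± 0.13 (SE; edgeR adjusted p = 5.17e-11). Acacb rose by 2.14 ± 0.22, Slc25a1 by 2.06 ± 0.16, Acaca by 1.70 ± 0.17, Me1 by 1.19 ± 0.09 and Acss2 by 0.58 ± 0.15 (edgeR adjusted p = 0.00311 for Acss2, and smaller for the others). Srebf1 rose by 2.81 ± 0.19 (edgeR adjusted p = 8.16e-09).

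Thrsp had 32640 counts at day 6 against 1 at day 0 in WT, a depth-scaled ratio of 77300 with an exact 95% interval of 13900 to 3050000. Mlxipl had 22 counts against 0, at least 17.4-fold higher when the 3 WT libraries of day 0 are given a floor of 3 counts in all. Such intervals and floors cover counting error only. Acly was the exception, with 289.5 ± 26.5 CPM at day 6 against 260.1 ± 49.8 CPM at day 0 and a log2 fold change of 0.15 ± 0.12 (edgeR adjusted p = 0.281). The median of the 10 log2 fold changes was 2.10, against -0.04 over all genes tested. Without Thrsp and Mlxipl, which could only be called higher, the median of the other 8 genes was 1.88. The call of Acss2 was lost with libraries scaled to plain totals (0.18, edgeR adjusted p = 0.321), a scaling that moved the median of all genes to -0.43 and the split of calls to 29.6% higher, against 48.9% higher with TMM.

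In MIGA2-KO cells the same interval gave 5 genes higher and 2 lower, where 23.3% of all genes were called higher and 21.0% lower (44.3% in all). Without Thrsp, which had 1 count at day 0, and Mlxipl, with none, these are 4 higher and 2 lower of 8. Srebf1 rose by 1.68 ± 0.18 (edgeR adjusted p = 3.4e-06), Acacb by 0.96 ± 0.22 and Slc25a1 by 0.56 ± 0.15 on the log2 scale. Without replicate 1 of MIGA2-KO day 6 the value of Acacb was 0.54. Thrsp had 1323 counts at day 6 against 1 at day 0, a ratio of 1430 with an exact 95% interval of 256 to 56400. Replicate 1 held 848 of the 1323 counts, and without it the ratio was 762 with an interval of 136 to 30100. Fasn was at 402 ± 22.3 CPM at day 6 against 322 ± 12.2 CPM at day 0, a log2 fold change of 0.32 ± 0.12 (edgeR adjusted p = 0.0471). The call of Fasn was lost when any 1 of the 6 libraries was left out. Mlxipl had 7 counts against 0, at least 2.52-fold higher, and was not called (edgeR adjusted p = 0.135). All 7 came from replicate 1 of day 6, so without it Mlxipl had no count at either time and no bound.

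Acly fell in MIGA2-KO cells to 122 ± 7.51 CPM at day 6, against 291 ± 3.48 CPM at day 0, a log2 fold change of -1.25 ± 0.12 (edgeR adjusted p = 1.24e-06). Acss2 fell too, by 0.44 ± 0.15 on the log2 scale (edgeR adjusted p = 0.0283), a call that was lost when replicate 2 or 3 of either day was left out (-0.29 without replicate 3 of day 6). Me1 was at 75.9 ± 4.73 CPM against 69.6 ± 3.02 CPM (0.12 ± 0.09, edgeR adjusted p = 0.295). Acaca was not called with all libraries (-0.22 ± 0.17, edgeR adjusted p = 0.331), but leaving out replicate 1 of MIGA2-KO day 6 gave a call of lower, at -0.53 (edgeR adjusted p = 0.00199).

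**Figure D2:**
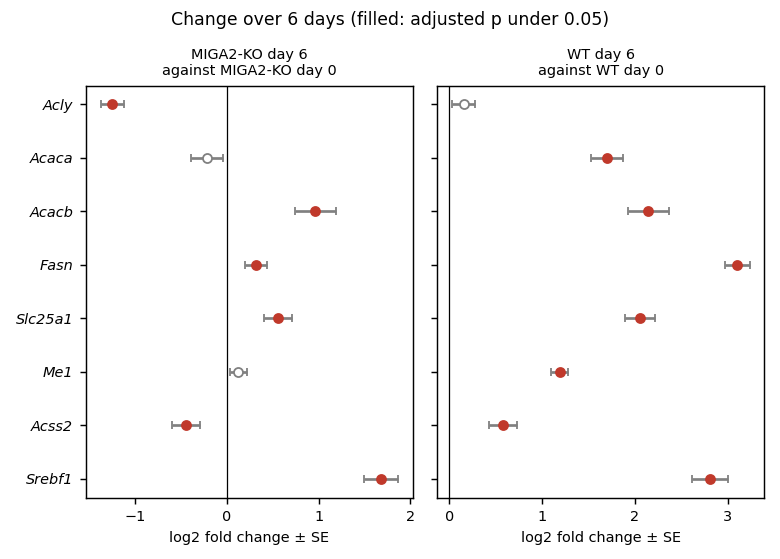
Log2 fold change over 6 days (horizontal axes, ± SE) of the 8 genes counted in all groups, in MIGA2-KO (left) and WT (right); filled points passed an adjusted p of 0.05. In WT 7 of the 8 genes were higher at day 6, led by Fasn at 3.10, while in MIGA2-KO Acly and Acss2 lay below 0 and Fasn was at 0.32.

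The change over time in MIGA2-KO minus that in WT was tested in the same model. It was lower in MIGA2-KO for 8 of the 10 genes and higher for none, where 13.6% of all genes were lower and 13.7% higher (27.2% in all). Fasn differed most, at -2.79 ± 0.18 (SE; edgeR adjusted p = 1.54e-07), followed by Acaca at -1.92 ± 0.24, Slc25a1 at -1.50 ± 0.22 and Acly at -1.40 ± 0.17. Acacb was at -1.18 ± 0.31, Srebf1 at -1.13 ± 0.26, Me1 at -1.06 ± 0.13 and Acss2 at -1.02 ± 0.21, and the median of these 8 genes was -1.29 against 0.02 over all genes. For Thrsp and Mlxipl the fitted difference rests on 1 count or none at day 0 and is not given. Of the 8 adipocyte markers 2 were called lower in the same contrast, Lipe at -0.80 ± 0.27 and Fabp4 at -1.50 ± 0.30, and the other 6 had 3 counts or fewer in each day 0 library. Of the 6 preadipocyte and fibroblast markers 2 were called higher, Pdgfrb at 1.48 ± 0.13 and Col1a1 at 2.21 ± 0.32. The other 4 were not called: Pdgfra at 0.61, Thy1 at 0.17, Dlk1 at -0.54 and Ly6a at -0.57. The part of these markers in the result was not tested. With plain library totals, which moved the median of all genes to 0.39 and the split of calls to 82.6% higher against 50.2% with TMM, Acacb was no longer called (-0.80, edgeR adjusted p = 0.0601).

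At day 0 MIGA2-KO cells had 2 genes higher than WT cells and none lower, against 16.1% of all genes higher and 17.7% lower (33.9% in all). Fasn was at 322 ± 12.2 CPM in MIGA2-KO and 197 ± 26.6 CPM in WT, a log2 fold change of 0.71 ± 0.12 (edgeR adjusted p = 0.000685). Me1 was at 69.6 ± 3.02 CPM in MIGA2-KO and 49.6 ± 3.76 CPM in WT, at 0.49 ± 0.09 (edgeR adjusted p = 0.00124). Srebf1, at 42.3 ± 2.72 CPM in MIGA2-KO and 30.5 ± 5.35 CPM in WT, missed the threshold at 0.47 ± 0.18 (edgeR adjusted p = 0.0591). Acaca (0.33 ± 0.17), Acacb (0.36 ± 0.22), Acly (0.16 ± 0.12), Acss2 (-0.08 ± 0.15) and Slc25a1 (-0.20 ± 0.15) were not called. No fold is given for Thrsp, with 1 count in each group, or Mlxipl, with 0 counts in each.

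That count depends on the libraries that stood apart. Without those 3 libraries 5 genes were called higher in MIGA2-KO at day 0, with Acaca at 0.36, Acacb at 0.41 and Srebf1 at 0.48 added to Fasn at 0.69 and Me1 at 0.49. With plain library totals the median of all genes was -0.15 and 28.1% of calls were higher, against 47.6% with TMM.

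At day 6 MIGA2-KO cells had 9 of the 10 genes lower than WT cells and none higher, where 31.5% of all genes were lower and 29.2% higher (60.7% in all). The median of the 10 log2 fold changes was -1.42, against -0.01 over all genes. Without Thrsp and Mlxipl the median of the other 8 genes was -1.17. Thrsp was furthest apart, at 37.9 ± 31.0 CPM in MIGA2-KO and 1039 ± 253 CPM in WT, a log2 fold change of -4.78 ± 0.43 (edgeR adjusted p = 6.71e-07). Fasn was at 402 ± 22.3 CPM in MIGA2-KO, 23.7% of the 1693 ± 276 CPM in WT (-2.08 ± 0.13, edgeR adjusted p = 1.96e-08). The share of the WT level was 30.7% for Slc25a1, 33.3% for Acaca, 42.3% for Acly and 46.8% for Acss2.

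Closer to the WT level stood Acacb at 56.8%, Srebf1 at 63.4% and Me1 at 67.1%, each still called lower (log2 fold changes of -0.82 ± 0.21, -0.66 ± 0.18 and -0.58 ± 0.09; the highest edgeR adjusted p of these was 0.00559). Without replicate 1 of MIGA2-KO the value of Acacb was -1.23, and without the 3 libraries that stood apart it was -1.33. Without WT day 6 replicate 3 Srebf1 was at -0.36 (edgeR adjusted p = 0.0406). Mlxipl had 7 counts in MIGA2-KO and 22 in WT and was not called (ratio 0.286, exact 95% interval 0.103 to 0.694; edgeR adjusted p = 0.149). With replicate 1 of MIGA2-KO day 6 left out, Mlxipl had no count left in that group, at least 5.48-fold lower with a floor of 3 counts over the 2 libraries, and was called lower (edgeR adjusted p = 0.0104), and Thrsp stood at -5.69. With plain library totals the median of all genes was 0.24 and 63.6% of calls were higher, against 48.1% with TMM, and the same 9 genes were called lower.

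The adipocyte markers moved with this difference, all 8 being called lower in MIGA2-KO at day 6 with a median log2 fold change of -2.26. Their part in the values of the lipogenesis genes was not tested. In the library labelled MIGA2-KO day 6 replicate 1, Thrsp was over 3 times the level of the other pair. Summed adipocyte markers were at 9425 CPM there, against 6010 and 5860 CPM in replicates 2 and 3. Slc25a1, Acly, Acss2, Acaca, Acacb, Me1 and Mlxipl were also highest in replicate 1 of that group. Fasn (385 CPM), Srebf1 (127 CPM) and the marker Lipe (402 CPM) were lowest in it. Whether the genes follow the markers was not tested.

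In MIGA2-GFP cells at day 6, 4 genes were lower than in WT cells, 1 was higher and 5 were not called, where 18.9% of all genes were lower and 16.5% higher (35.3% in all). Fasn was at 745 ± 25.0 CPM in MIGA2-GFP and 1693 ± 276 CPM in WT, a log2 fold change of -1.18 ± 0.12 (edgeR adjusted p = 1.7e-05). Acly was at 155 ± 2.33 CPM in MIGA2-GFP and 289.5 ± 26.5 CPM in WT (-0.90 ± 0.12), and Acaca at 74.1 ± 2.65 CPM in MIGA2-GFP and 126 ± 6.90 CPM in WT (-0.77 ± 0.17). Thrsp was at 431 ± 4.85 CPM in MIGA2-GFP and 1039 ± 253 CPM in WT, at -1.27 ± 0.37 (edgeR adjusted p = 0.0169), a call that was lost when any library other than WT replicate 1 was left out.

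The gene called higher was Acacb, at 76.2 ± 2.24 CPM in MIGA2-GFP and 36.1 ± 4.69 CPM in WT, a log2 fold change of 1.08 ± 0.21 (edgeR adjusted p = 0.00154). The 2 carboxylase genes therefore lay on opposite sides of WT, each without overlap between the groups. Slc25a1 (-0.28 ± 0.15), Me1 (-0.15 ± 0.09), Acss2 (0.30 ± 0.15) and Srebf1 (0.20 ± 0.18) were not called. Mlxipl had 75 counts in MIGA2-GFP and 22 in WT, a ratio of 3.05 with an exact 95% interval of 1.88 to 5.16, and missed the threshold (edgeR adjusted p = 0.0902).

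Without the 3 libraries that stood apart, 3 genes were higher in MIGA2-GFP than in WT and 6 lower: Acss2 (0.36) and Mlxipl (1.53), which had entered the test through MIGA2-GFP, joined Acacb, and Slc25a1 (-0.43) and Me1 (-0.19) joined the lower genes. Without WT day 6 replicate 3, the WT library with most Srebf1, Srebf1 was also called higher (0.47, edgeR adjusted p = 0.025). The adipocyte markers were at a median log2 fold change of -0.82 in MIGA2-GFP against WT, 4 of 8 being called lower, and their part in these values was not tested. With plain library totals the median of all genes was 0.18 and 69.6% of calls were higher, against 46.6% with TMM.

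Against MIGA2-KO cells at day 6, MIGA2-GFP cells had all 10 genes higher, where 25.4% of all genes were higher and 22.5% lower (47.9% in all), with a median of 1.14 against 0.01 over all genes. For Mlxipl, which entered the test through MIGA2-GFP, this call had little room to fall otherwise. The median of the 8 genes other than Mlxipl and Thrsp was 0.88. Thrsp was at 431 ± 4.85 CPM in MIGA2-GFP and 37.9 ± 31.0 CPM in MIGA2-KO, a log2 fold change of 3.51 ± 0.41 (edgeR adjusted p = 1.18e-05) that stood at 4.40 when replicate 1 of MIGA2-KO was left out. Acacb was at 76.2 ± 2.24 CPM in MIGA2-GFP and 20.5 ± 9.14 CPM in MIGA2-KO (1.89 ± 0.22), Slc25a1 at 637 ± 14.1 CPM in MIGA2-GFP and 238 ± 29.1 CPM in MIGA2-KO (1.42 ± 0.16), and Acss2 at 56.7 ± 3.59 CPM in MIGA2-GFP and 21.5 ± 5.08 CPM in MIGA2-KO (1.40 ± 0.15).

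Smaller differences were those of Fasn (0.89 ± 0.12), Srebf1 (0.86 ± 0.18), Acaca (0.82 ± 0.17) and Me1 (0.42 ± 0.09). Acly differed least, at 0.35 ± 0.12 (edgeR adjusted p = 0.0317), and its call was lost when any library other than MIGA2-KO replicate 1 was left out. Mlxipl had 75 counts in MIGA2-GFP and 7 in MIGA2-KO, a ratio of 10.7 with an exact 95% interval of 4.93 to 27.4. As all 7 lay in replicate 1, MIGA2-KO without it had 0 counts, and MIGA2-GFP was at least 16.7-fold higher with a floor of 3 counts over the 2 libraries left. The 8 adipocyte markers were higher too, with a median of 2.09, and their part was not tested. The day 6 comparisons share libraries pairwise, MIGA2-KO and MIGA2-GFP being set against the same 3 WT libraries, so their values are given side by side and not as independent evidence.

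**Figure D3:**
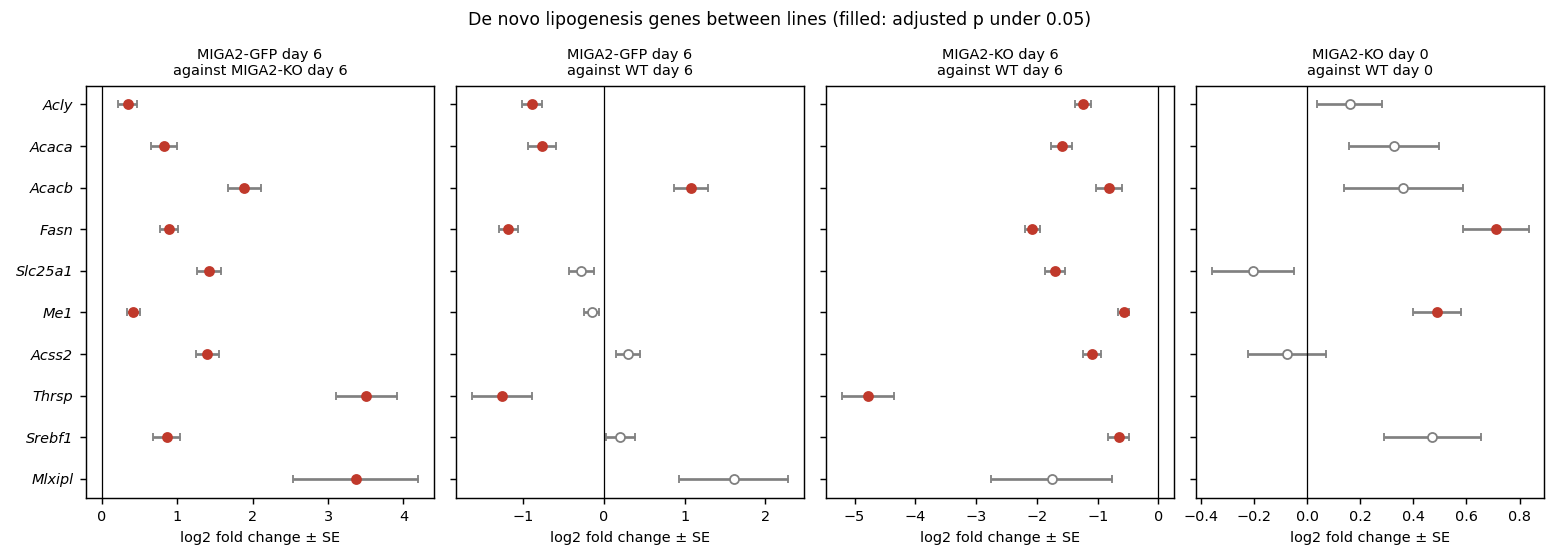
Log2 fold change between lines (horizontal axes, ± SE) of each gene; filled points passed an adjusted p of 0.05, and Thrsp and Mlxipl are left out at day 0, where they had 1 count or none in a group. In MIGA2-GFP against WT, Acacb lay at 1.08 and Fasn at -1.18, while in MIGA2-KO against WT at day 6 all genes lay below 0.

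Ratios within a library do not depend on its scaling and show how the genes changed in relation to each other. Per kilobase, Acacb over Acaca was 1.80, 1.72 and 1.96 in MIGA2-GFP, 0.942, 0.927 and 0.696 in MIGA2-KO and 0.459, 0.499 and 0.561 in WT at day 6, with 0.332 to 0.441 in MIGA2-KO and 0.351 to 0.383 in WT at day 0. MIGA2-GFP was the one group in which Acacb exceeded Acaca on this scale, and the 3 day 6 groups did not overlap in this ratio. The size of the ratio depends on the merged exon lengths, 17074 bases for Acaca and 9632 bases for Acacb. In CPM the carboxylases were close in MIGA2-GFP, Acacb at 76.2 ± 2.24 and Acaca at 74.1 ± 2.65. The order of the groups does not depend on these lengths. An exact test of 3 against 3 libraries cannot give a two-sided p below 0.1, so no test is given for the ratios.

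Acly over Fasn averaged 0.433 ± 0.0207 in MIGA2-GFP, 0.634 ± 0.071 in MIGA2-KO and 0.364 ± 0.0912 in WT at day 6, against 1.87 ± 0.0891 in MIGA2-KO and 2.76 ± 0.616 in WT at day 0. The ratio was below 1 in every day 6 library and above 1 in every day 0 library. Acss2 over Acly, the acetate route over the citrate route, averaged 0.190 ± 0.0149 in MIGA2-GFP, 0.0910 ± 0.0183 in MIGA2-KO and 0.0825 ± 0.00219 in WT at day 6, and MIGA2-GFP did not overlap the other 2 groups. Fasn made up 29.5% ± 0.593 of the summed CPM of the 10 genes in MIGA2-GFP, 36.8% ± 3.71 in MIGA2-KO and 39.1% ± 0.914 in WT at day 6, and 33.0% ± 0.732 in MIGA2-KO and 24.5% ± 2.12 in WT at day 0 (SD, n = 3 in each group). The sum itself was 2526 ± 44.9 CPM in MIGA2-GFP, 1096 ± 79.8 CPM in MIGA2-KO and 4333 ± 706 CPM in WT at day 6.

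**Figure D4:**
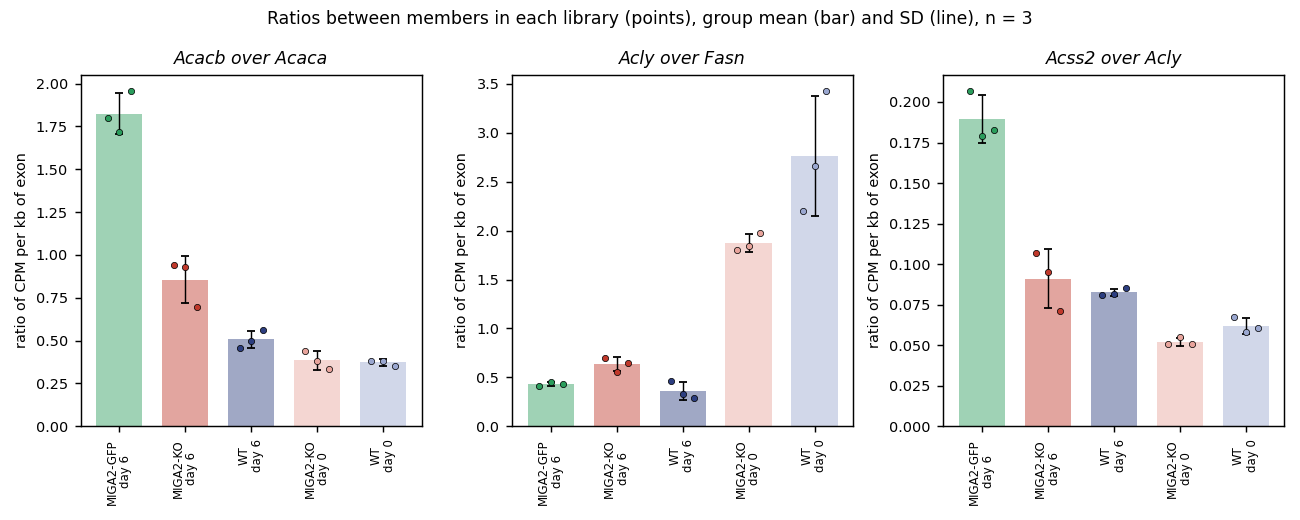
Ratios of CPM per kilobase of exon (vertical axes, from 0) within each library; points are libraries, bars means and lines SD (n = 3 each). Acacb over Acaca averaged 1.82 in MIGA2-GFP, above all other groups, and Acly over Fasn lay below 1 in the day 6 groups and above 1 at day 0.

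The reactions and regulators around the pathway were read from 8 lists with 49 genes, of which 47 were tested. In MIGA2-GFP against WT at day 6, 2 of the 47 were higher and 14 lower (4.26% and 29.8%, against 16.5% and 18.9% of all genes). In MIGA2-GFP against MIGA2-KO, 28 were higher and 5 lower (59.6% and 10.6%, against 25.4% and 22.5% of all genes). In MIGA2-KO against WT at day 6, 4 were higher and 32 lower (8.51% and 68.1%, against 29.2% and 31.5% of all genes). At day 0 11 were higher and 7 lower (23.4% and 14.9%), near the 16.1% and 17.7% of all genes. Over time 25 were higher and 6 lower in MIGA2-KO (53.2% and 12.8%, against 23.3% and 21.0% of all genes), and 35 higher and 6 lower in WT (74.5% and 12.8%, against 31.7% and 33.1%).

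Citrate and NADPH supply had 8 of 10 genes lower in MIGA2-KO than in WT at day 6 and none higher. Pcx, pyruvate carboxylase, which feeds citrate synthesis, was at 799 ± 63.0 CPM in MIGA2-KO and 2905 ± 479 CPM in WT (log2 fold change -1.86 ± 0.12, edgeR adjusted p = 3.36e-08), and Mdh1, cytosolic malate dehydrogenase, at 335 ± 23.3 CPM in MIGA2-KO and 981 ± 82.9 CPM in WT (-1.55 ± 0.11). Of the other acetyl-CoA sources 3 of 3 tested were lower, among them Crat, carnitine acetyltransferase (264 ± 13.4 CPM in MIGA2-KO and 829.9 ± 74.6 CPM in WT, -1.65 ± 0.09), and Aacs, acetoacetyl-CoA synthetase (-0.96 ± 0.18).

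Of the first steps after palmitate 4 of 5 were lower in MIGA2-KO at day 6 and 1 higher. Acsl1, a long-chain acyl-CoA synthetase, was at 389 ± 141 CPM in MIGA2-KO and 2948 ± 549 CPM in WT (-2.92 ± 0.24, edgeR adjusted p = 2.99e-07). Elovl6, which elongates palmitate, went the other way, with 20.7 ± 1.07 CPM in MIGA2-KO and 9.58 ± 1.18 CPM in WT (1.11 ± 0.14, edgeR adjusted p = 1.72e-05). It was also the gene of this list that was lower at day 6 than at day 0 in WT (-1.43 ± 0.14), a fall shared by MIGA2-KO (-0.57 ± 0.13).

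Among the regulators in MIGA2-KO against WT at day 6, SREBP processing had 2 of 6 genes lower and none higher, a share of lower genes near the 31.5% of all genes. The 2 were Insig2 (-1.41 ± 0.13) and Insig1 (-0.70 ± 0.12), which hold the SREBP escort protein in the endoplasmic reticulum. ChREBP partners and targets had 3 of 5 lower, with Mlx, the partner with which ChREBP binds DNA, at 35.3 ± 2.30 CPM in MIGA2-KO and 78.9 ± 5.17 CPM in WT (-1.16 ± 0.12) and Gpd1, glycerol-3-phosphate dehydrogenase, at -2.94 ± 0.43. Of 3 nuclear receptors that act on Srebf1, Nr1h3, the liver X receptor alpha, was lower (44.5 ± 8.27 CPM in MIGA2-KO and 150 ± 36.5 CPM in WT, -1.76 ± 0.17), Rxra higher (0.68 ± 0.14) and the third not called.

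Acetyl-CoA carboxylase regulators had 6 of 9 lower and 2 higher in MIGA2-KO at day 6. Mlycd, malonyl-CoA decarboxylase, was lower (10.2 ± 5.71 CPM in MIGA2-KO and 56.4 ± 17.1 CPM in WT, -2.46 ± 0.31), and Prkaa1, a catalytic subunit of AMP-activated protein kinase, which phosphorylates the carboxylases, was higher (118 ± 9.77 CPM in MIGA2-KO and 47.7 ± 8.16 CPM in WT, 1.30 ± 0.15). Mitochondrial fatty acid synthesis, a separate route that makes the lipoic acid precursor, had 5 of 6 lower, led by Mecr (-1.92 ± 0.17) and Cbr4 (-1.37 ± 0.17).

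In MIGA2-GFP against WT at day 6 the first steps after palmitate had 0 of 5 genes called in edgeR, with Scd1, the stearoyl-CoA desaturase, at 27027 ± 218 CPM in MIGA2-GFP and 22356 ± 1787 CPM in WT (0.27 ± 0.41) and Scd2 at 0.62 ± 0.26 (edgeR adjusted p = 0.074, unadjusted p = 0.0296, the smallest of the 5). Citrate and NADPH supply had 5 of 10 lower and none higher, with G6pdx, glucose-6-phosphate dehydrogenase, at 141 ± 6.61 CPM in MIGA2-GFP and 374 ± 25.5 CPM in WT (-1.41 ± 0.11, edgeR adjusted p = 2.35e-06) and Mdh1 at -0.89 ± 0.11. Crat was the 1 other acetyl-CoA source called, lower at -0.46 ± 0.09. Among the regulators Srebf2 was higher (172 ± 5.14 CPM in MIGA2-GFP and 100.3 ± 11.5 CPM in WT, 0.78 ± 0.12) and Mlx lower (-0.70 ± 0.12), while none of the 3 nuclear receptors was called in edgeR (Rxra 0.17 ± 0.14 and Nr1h3 -0.33 ± 0.16, Nr1h3 with the smallest unadjusted p of the list, 0.061). Of the carboxylase regulators 1 of 9 was higher, Prkaa2, at 1.90 ± 0.582 CPM in MIGA2-GFP and 0.535 ± 0.213 CPM in WT, and 3 lower, among them Mid1ip1 (-0.66 ± 0.17), whose product binds ACC1. Mitochondrial fatty acid synthesis had 4 of 6 lower, with Mecr at -1.25 ± 0.17 and Acsf3 at -1.19 ± 0.20.

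**Figure D5:**
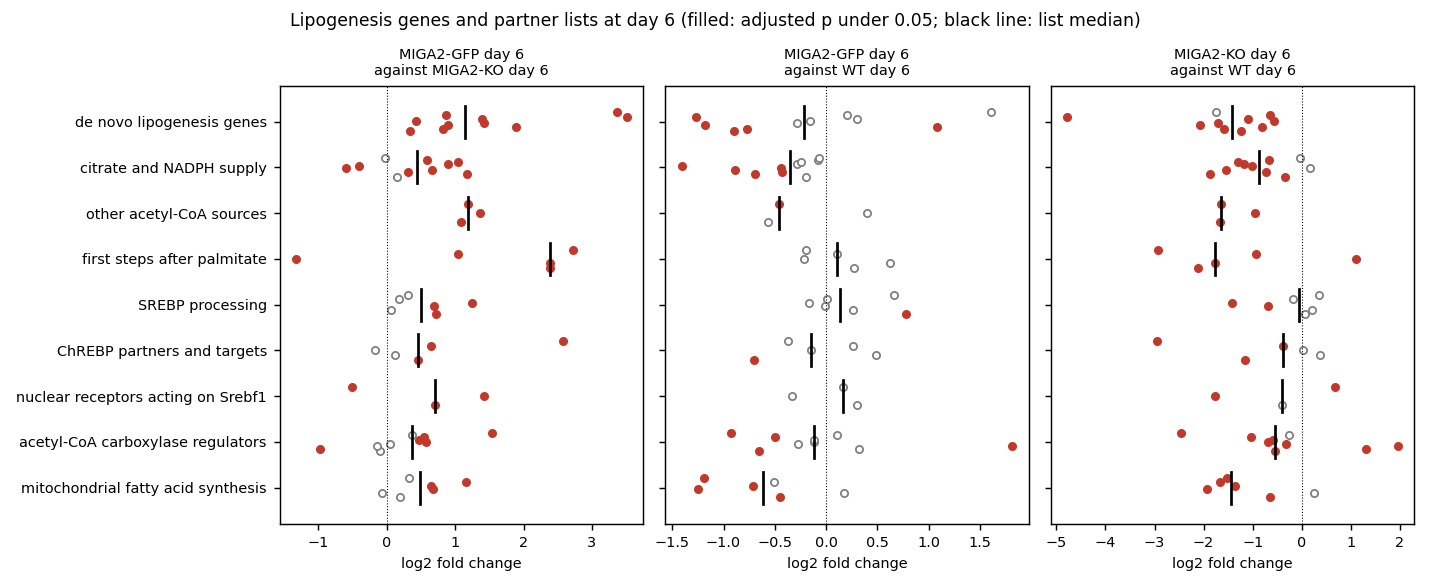
Log2 fold change (horizontal axes) of the 10 lipogenesis genes and of the tested genes of 8 surrounding lists in the 3 comparisons at day 6; filled points passed an adjusted p of 0.05 and the black line is the median of the list. In MIGA2-KO against WT Elovl6 lay at 1.11 while the other steps after palmitate lay below 0, and in MIGA2-GFP against WT no gene of that list was called.

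The genes whose pattern was most like each lipogenesis gene were found by the root mean square difference of log2 CPM, centred per gene, over all 15 libraries, so a small value means a closely parallel course. Thrsp ran closest to Retn, the adipocyte hormone resistin (0.25), then Gpd1 (0.66) and G0s2 (0.74). Fasn ran closest to Msln (0.21), Acly to Rab9 (0.20), Acaca to Hsd17b12 (0.23) and Acacb to Pvr (0.28). Slc25a1 ran closest to Aldoa (0.08), Me1 to Cers2 (0.10), Acss2 to Dop1b (0.18), Srebf1 to Abcb6 (0.23) and Mlxipl to Gm10309 (0.47). None of the 10 genes was among the nearest 3 of another of them. Over all 15 libraries the SD of log2 CPM was 5.65 for Thrsp, 1.74 for Mlxipl, 1.28 for Srebf1, 1.23 for Acacb and 1.11 for Fasn, down to 0.54 for Acss2 and 0.44 for Me1. At day 0 Thrsp had 1 count per group, and Mlxipl and Retn had none. Their log2 CPM there was set mainly by the prior count of 2 added before the log. The likeness and the SD of Thrsp and Mlxipl depend on that setting.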

How the data were processed

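Per the submitters' processing notes, reads of stranded TruSeq libraries were handled with bcl2fastq 2.19, Trimmomatic, STAR 2.5.4b (GRCm38.p5), featureCounts and edgeR. The deposited values are raw counts per gene, 1 column per library. Of 25700 identifiers 25664 matched a symbol in GENCODE vM21. The sources at hand do not give the strand setting or the handling of reads with several map positions. Counts were tested with edgeR 4.0.16 (R 4.3.3): filterByExpr (minimum count 10, minimum total 15), TMM, 1 term per group over all 15 libraries, quasi-likelihood F tests, two-sided, Benjamini-Hochberg over 12279 genes; the common biological coefficient of variation was 15.96%. Levels are TMM-scaled CPM with SD over 3 libraries, and the SE of a log2 fold change is its size divided by the root of F. Whether replicates came from separate cultures is not in the labels; a p-value here covers the spread between these libraries only. Alternatives were DESeq2 1.42.0, limma 3.58.1 (voom), other scalings and filters, and left-out libraries. The 10 genes and all lists were chosen with earlier results of these data known; from each surrounding list, the text names genes with the smallest adjusted p (highest CPM where none passed). Pc is listed as Pcx.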

Additional observations from a re-analysis of the deposited data

Results flagged for a closer look

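The change over 6 days differed between MIGA2-KO and WT cells, by a test of the difference itself, for the 8 lipogenesis genes counted in all groups. The difference, as the change in MIGA2-KO minus that in WT on the log2 scale, was -2.79 for Fasn, -1.92 for Acaca, -1.50 for Slc25a1, -1.40 for Acly, -1.18 for Acacb, -1.13 for Srebf1, -1.06 for Me1 and -1.02 for Acss2. Acly was at 122 ± 7.51 CPM at day 6 against 291 ± 3.48 CPM at day 0 in MIGA2-KO and 289.5 ± 26.5 CPM at day 6 against 260.1 ± 49.8 CPM at day 0 in WT, and of the 2 changes that in MIGA2-KO passed the test while that in WT did not (0.15 ± 0.12, edgeR adjusted p = 0.281). In the same contrast 2 of 8 adipocyte markers were called lower, Lipe (-0.80) and Fabp4 (-1.50). Of 6 preadipocyte and fibroblast markers 2 were called higher, Pdgfrb (1.48) and Col1a1 (2.21). The other 4 were not called: Pdgfra (0.61), Thy1 (0.17), Dlk1 (-0.54) and Ly6a (-0.57). The part of the markers was not tested.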

How the results depend on the processing

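Each log2 fold change was recomputed under up to 10 kinds of alternative, which gave 1074 values: 1009 kept their direction and their side of the threshold, 28 were no longer called, 33 were newly called and 4 changed sign, none of which was called either way. The sign changes were those of Acly in WT at day 6 against day 0 (-0.24 with plain library totals, -0.055 with limma voom, -0.059 without the 3 libraries that stood apart) and Me1 in MIGA2-GFP against WT (0.025 with plain totals). Plain totals were added after seeing the data. Of the counts of genes called, those that moved by over 1.5 times were genes higher in MIGA2-KO than WT at day 0 (5 with voom and 5 without those 3 libraries, in place of 2), genes higher in MIGA2-GFP than WT at day 6 (2 with plain totals, 2 with only the groups compared, 3 with voom and 3 without those libraries, in place of 1; 1 to 2 with single libraries left out, 2 being without WT day 6 replicate 3) and genes lower at day 6 in MIGA2-KO (1 to 3 with single libraries left out, in place of 2; 1 without MIGA2-KO replicate 2 or 3 of either day). The cause of these shifts was not tested. Same-numbered replicates were not paired: 1 of 18 same-number correlations of deviations was over 0.1 (range -0.72 to 0.12). With the replicate block Fasn over time in MIGA2-KO (0.32, edgeR adjusted p = 0.0681) and Acly in MIGA2-GFP against MIGA2-KO (0.34, edgeR adjusted p = 0.0543) were no longer called, and no other call changed. Depth limits Mlxipl, with 0 to 75 counts over a group, and Thrsp at day 0.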
